A study of Mus musculus with 45 samples.

Results

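The genes described here belong to the stress and amino acid response run by the transcription factor ATF4, measured by RNA sequencing in regenerating mouse liver. The set holds 10 genes: the transcription factors Atf4, Atf5 and Ddit3, the amino acid synthesis genes Asns, Psat1 and Phgdh, the regulators Trib3, Chac1 and Sesn2, and the hormone gene Fgf21. They were taken by name and matched by Ensembl ID among the 19966 genes of the deposited count table, and all 10 were found and passed the filter on low counts, which left 14090 genes for testing. The set was selected on measured values of these libraries: it was chosen by the higher Asns level in knockout livers at 40 h, 7 days and 4 weeks. Genotype contrasts of all 10 genes and time contrasts of Asns at those 3 times are therefore given as descriptions, with no p-value, and the other contrasts are tested.

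Livers came from Uhrf1hepKO mice (KO, by its name a knockout of Uhrf1 in hepatocytes, the epithelial cells of the liver) and from wild-type mice (WT), before surgery (baseline) and after partial hepatectomy, with times of 24, 30, 40, 48 and 96 h, 7 days and 4 weeks. This operation removes a large share of the liver, and the remaining lobes grow back. All mice were C57Bl/6, ate a normal diet and were 8 to 12 weeks old at surgery, which was done in the morning. The driver of the deletion, the sex of the mice and the hour of collection were not stated in the labels read here. The 16 groups of genotype and time held 45 libraries: 13 groups had 3 libraries, and KO at 7 days, WT at 30 h and WT at 48 h had 2. The labels do not say that libraries of a group are separate animals, so p-values measure the spread between these libraries only, which may be in part technical.

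Total counts were 12851359 to 23133501 per library. Levels below are CPM, read counts scaled to a common library total, with TMM scaling as a correction for differences in library composition. Hepatocyte markers such as Alb summed to 67284 CPM or more in every library. Uhrf1 lay at 0.674 to 15.2 CPM in the 12 KO libraries of 24 to 48 h, against 1.52 to 107 CPM in the 10 WT libraries of those times, and within each of these times every KO library was below every WT library. The libraries labelled WT at 96 h went against their label. They held the methylation-silenced homeobox gene Rhox5 at 2.86 to 9.58 CPM and Bglap3 at 9.38 to 28.4 CPM, against 0 to 0.59 and 0.112 to 1.53 CPM in the 19 other WT libraries. The 96 h groups are given as labelled, and no genotype effect is read from them.

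In the integrated stress response, kinases that sense amino acid shortage, misfolded protein in the endoplasmic reticulum (ER), heme shortage or viral RNA phosphorylate the translation factor eIF2. Bulk protein synthesis then slows, while the Atf4 message is translated better, and ATF4 switches on genes for amino acid synthesis, amino acid import, tRNA charging and stress signalling. The level of Atf4 mRNA is thus not a measure of ATF4 protein. ATF4 binds with C/EBP partners at composite C/EBP-ATF elements, which take the form TGATGNAA.

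That motif, searched on both strands in the 250 bases before each RefSeq start (GRCm38.p6), was present in 3 of the 10 genes, against 1056 of 27025 genes (3.91%). The 3 sites are shown because they are the only full matches among the members. Each line holds 30 bases, read 5′ to 3′ on the strand that carries TGATGNAA, with the motif in capitals.

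Asns, chr6:7693214-7693243, minus strand, 23 bases before the start: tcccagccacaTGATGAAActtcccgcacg

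Chac1, chr2:119351038-119351067, minus strand, 193 bases before the start: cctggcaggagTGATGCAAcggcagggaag

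Fgf21, chr7:45615611-45615640, plus strand, 139 bases before the start: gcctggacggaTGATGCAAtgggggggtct

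The Asns site reads on the strand of the gene, and those of Chac1 and Fgf21 on the opposite strand. GENCODE M21 has Asns transcripts that begin upstream of the RefSeq start, so the Asns site lies in an annotated exon, while the other two sites lie outside exons of their genes. The 6-letter core ATGNAA, which is contained in the full motif, was found in 6 of the 10 genes (also Ddit3, Sesn2 and Trib3) and in 39.6% of all genes. These are matches of letters in a window and were not tested as binding sites. By estimate, the 3 genes with a full match did not all move the same way at 24 h: as described below, Asns and Fgf21 were higher and Chac1 was lower in both genotypes. Asns was not called at that time, and the Fgf21 and Chac1 calls were each lost without at least 1 library.

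Per unit of transcript length, the 10 genes spanned a wide range. On the deposited FPKM scale, which corrects for transcript length and depth, WT livers at baseline held Atf5 at 89.4 ± 9.28 and Atf4 at 45.7 ± 8.24 (SD, n = 3). Ddit3 followed at 5.69 ± 0.566, Trib3 at 4.93 ± 5.38, Chac1 at 2.76 ± 1.84 and Sesn2 at 1.53 ± 0.62 FPKM. Asns stood at 0.887 ± 0.336, Psat1 at 0.433 ± 0.176, Fgf21 at 0.341 ± 0.231 and Phgdh at 0.148 ± 0.0457 FPKM. From Ddit3 down to Phgdh, each gene's libraries overlapped with those of its neighbour in this order, while Atf5, Atf4 and Ddit3 did not overlap.

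Asns (ENSMUSG00000029752; chromosome 6, 7675169 to 7693254, minus strand, GRCm38) makes asparagine from aspartate with glutamine as the nitrogen donor. Outside 96 h its mean level was higher in KO than in WT livers at 7 of 7 conditions, and its KO libraries lay above all WT libraries at 6 of them. The direction at 3 of those conditions was known when the genes were chosen. At baseline Asns had 8.3, 3.77 and 5.1 CPM in KO livers, against 1.46, 2.29 and 1.07 CPM in WT livers. At 24 h it had 16.2, 5.21 and 7.28 CPM in KO livers, against 2.16, 2.2 and 4.88 CPM in WT livers. At 30 h the genotypes overlapped, with 7.09, 10.9 and 15.9 CPM in KO livers and 8.21 and 10.4 CPM in WT livers. Without KO 30 h replicate 3 the log2 difference at 30 h was -0.062. Outside 96 h this was the one condition without a gap, and WT livers were then at their highest mean.

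At 40 h Asns stood at 25.1, 18.1 and 23.2 CPM in KO livers, against 2.83, 4 and 3.34 CPM in WT livers. At 48 h the levels were 17.2, 12.1 and 9.48 CPM in KO livers, against 5.54 and 4.36 CPM in WT livers. The lowest KO library was above the highest WT library at both times. Libraries labelled KO at 96 h held 22.4, 20.03 and 14.6 CPM, against 4.57, 4.75 and 8.8 CPM in those labelled WT. At 7 days KO livers held 24.9 and 57.3 CPM, against 9.15, 6.12 and 6.58 CPM in WT livers. At 4 weeks KO livers held 35.1, 17.8 and 39.02 CPM, against 4.82, 12.4 and 8.16 CPM in WT livers. The last 2 times had the highest KO means and the widest KO spread.

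**Figure D1:**
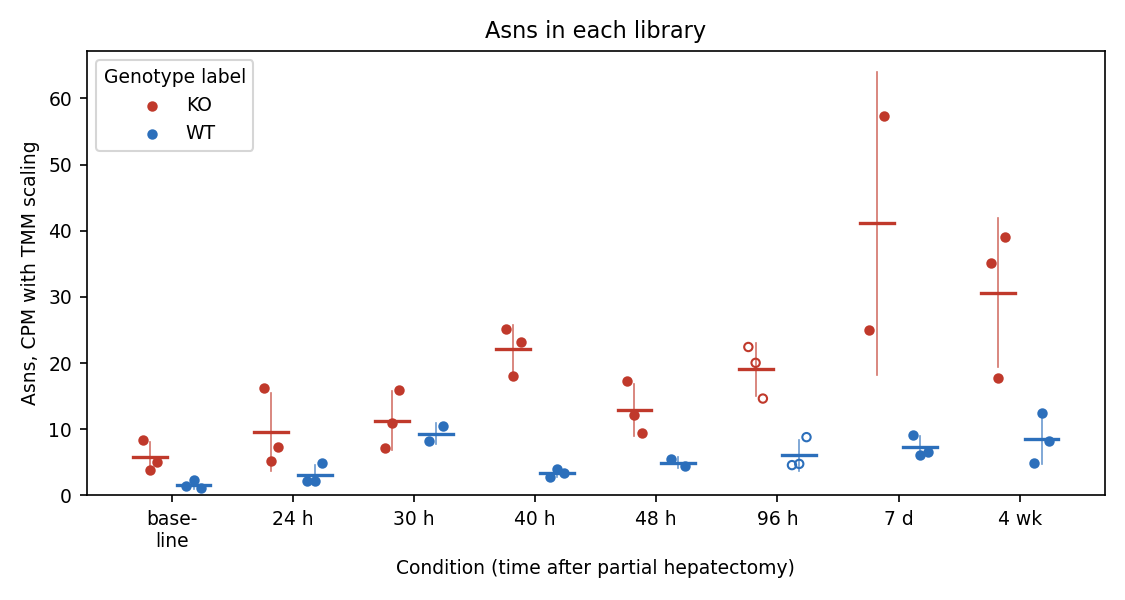
Asns in each of the 45 libraries (CPM with TMM scaling, linear axis) by condition, with KO in red left of WT in blue; horizontal bars are group means, vertical lines are 1 SD, and open circles mark the libraries of 96 h, given as labelled. Outside 96 h, KO livers lie above WT livers without overlap at every condition except 30 h.

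Of the genotype contrasts that did not enter the choice of genes, the 4 outside 96 h did not call Asns. Its log2 difference, KO minus WT, was 1.81 ± 0.51 (SE) at baseline (edgeR quasi-likelihood test, Benjamini-Hochberg adjusted p = 0.291), 1.63 ± 0.44 at 24 h (0.374), 0.27 ± 0.46 at 30 h (0.909) and 1.39 ± 0.48 at 48 h (0.743). The threshold was 0.05, and the number of genes called was small, at 0.0852%, 0.0426%, 0.937% and 0.135% of all genes tested. DESeq2 called the baseline difference (adjusted p = 0.0204), while the 7 other settings did not (adjusted p up to 0.459) and leaving out each library gave 0.199 to 0.907. Genes whose KO libraries all lay above WT made up 6.56% of all genes at baseline, 4.59% at 24 h and 9.99% at 48 h. At 96 h, from which no genotype effect is read, the difference as labelled was 1.66 ± 0.42 (adjusted p = 0.00863), in a contrast that called 14.3% of all genes, and 12.2% of genes had all libraries labelled KO above those labelled WT. That call was lost without replicate 1 labelled WT, where the adjusted p was 0.0503 in a range of 0.00107 to 0.0503 over all alternatives.

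At the 3 times that entered the choice of genes, the log2 difference of Asns was 2.70 ± 0.44 at 40 h, 2.50 ± 0.45 at 7 days and 1.85 ± 0.41 at 4 weeks. In linear terms these are 6.5-fold, 5.67-fold and 3.6-fold higher levels in KO livers. These contrasts chose the genes, so nothing is read from their counts. KO libraries lay above WT without overlap for 5%, 9.24% and 6.84% of all genes, and 0.142%, 0.135% and 0.22% were past the threshold. Asns, chosen by these contrasts, was the 1 of the 10 genes past the threshold at each, which is no result. With the replicate number as a block 0 of the 10 were, and leaving out 1 library gave 0 in 3 cases at 7 days and in 5 at 4 weeks.

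**Figure D2:**
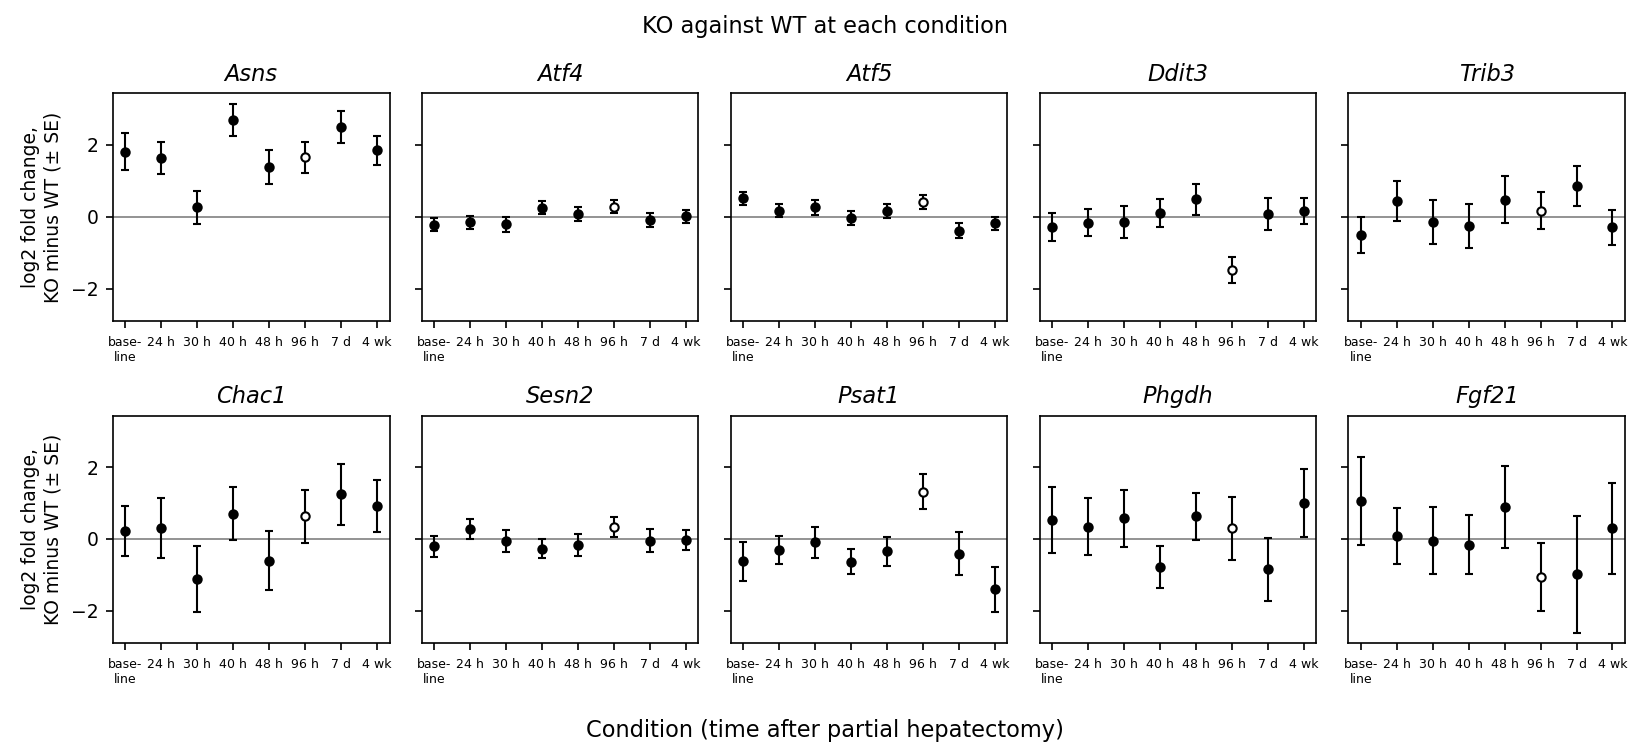
Log2 difference, KO minus WT, of each of the 10 genes at the 8 conditions, from the edgeR fit of all 45 libraries; points are estimates, bars are 1 SE, and the open point is 96 h as labelled. Outside 96 h, Asns lies above 0 at every condition, between 0.27 and 2.70, while the points of the other 9 genes lie between -1.40 and 1.24.

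None of the other 9 genes had a higher level in KO livers at every condition outside 96 h. Asns was chosen for its KO level, so its standing apart from them is no result. In the genotype contrasts tested outside 96 h, Asns was not called either. At baseline, 24 h, 30 h and 48 h they gave 36 genotype tests, of which 0 were called by edgeR and 1, Atf5 at baseline, had an unadjusted p under 0.05. The lowest adjusted p was 0.535, and the SE of these log2 differences ran from 0.18 to 1.22, so that differences of the low genes had wide intervals. At 96 h as labelled, 1 more gene was called, Ddit3, described with its group below. Outside 96 h, 7 conditions gave 63 differences for these genes. Libraries did not overlap in 7 of the 63, with KO higher in 4 (Chac1 at 40 h, Ddit3 and Trib3 at 48 h, Trib3 at 7 days) and lower in 3 (Psat1 at 4 weeks, Atf5 at 7 days and 4 weeks). At these 7 conditions 4.59% to 15.4% of all genes had KO livers above WT livers without overlap, and the share with KO livers below was 7.07%, 4.29%, 12.2%, 6.45%, 7.91%, 9.07% and 7.02%, in the order of the times. Psat1 had the lower mean log2 level in KO livers at all 7 of these conditions, and Atf4 differed by no more than 0.26 in either direction.

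Cell type markers were compared beside these differences, since bulk liver RNA cannot separate fewer cells of a type from less RNA per cell. Asns is abundant in the exocrine pancreas, and of 14 pancreatic markers 1 was in the table, Cela2a, at 0 to 1.4 CPM. Outside 96 h, 0 markers of any other cell type were called between genotypes. At baseline the summed level of the 7 Kupffer cell markers was 155 to 221 CPM in KO livers and 92.1 to 144 CPM in WT livers, and that of the 5 lymphocyte markers was 6.24 to 8.55 and 3.43 to 4.36 CPM in KO and WT livers. The endothelial sum was 141 to 152 CPM in KO livers and 113 to 136 CPM in WT livers at baseline. The neutrophil and monocyte sum was 2.22 to 4.29 and 1.22 to 1.61 CPM in KO and WT livers. The groups did not overlap for the Kupffer, lymphocyte, endothelial and neutrophil and monocyte sums, and overlapped for the hepatocyte, stellate and cholangiocyte sums. The part of these sums in the baseline difference of Asns was not tested. At 40 h the Kupffer sums overlapped, with 136 to 243 CPM in KO livers and 47.4 to 140 CPM in WT livers. The lymphocyte sums overlapped too, with 3.16 to 5.97 and 1.97 to 4.0 CPM in KO and WT livers. Some sums were lower in KO livers without overlap. For cholangiocyte markers this held at 24 h (39.6 to 55.3 against 56.9 to 93.5 CPM) and 4 weeks (26.2 to 42.1 against 45.3 to 63.9 CPM). That sum is largely Spp1, at 18.4 to 120 CPM over all libraries. Krt19, Krt7, Epcam and Sox9 reached at most 5.07, 4.71, 2.25 and 11 CPM, so the difference is not shown for the markers as a group. For stellate cell markers it held at 48 h (192 to 284 against 285 to 344 CPM).

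Most calls of these genes were changes with time after surgery, in both genotypes. Leaving out Asns at 40 h, 7 days and 4 weeks, the genes gave 134 tests against baseline, with 26 higher and 9 lower calls. In KO livers the number called was 4 of 10 at 24 h, 3 of 10 at 30 h, 2 of 9 at 40 h, 3 of 10 at 48 h, 2 of 10 at 96 h, and 0 of 9 at 7 days and at 4 weeks. The share of all genes called in KO livers was 23.7%, 33.1%, 35.6%, 36%, 44%, 5.56% and 8.57% in that order. In WT livers it was 5 of 10 at 24 h, 3 of 10 at 30 h, 6 of 9 at 40 h, 3 of 10 at 48 h, 2 of 10 at 96 h as labelled, and 1 of 9 at 7 days and at 4 weeks. The share of all genes called in WT livers was 22.4%, 17.7%, 36.5%, 31%, 27.4%, 3.56% and 1.17%. At 24 to 48 h a large part of all genes had changed, and the members' counts are to be read against those shares. Libraries of a time that lay all above baseline without overlap were found for 18.4% to 24.3% of all genes at 24 to 40 h. The 7 contrasts of a genotype share its 3 baseline libraries, so values at different times are not independent. The difference between the genotypes in the change from baseline was called for 0 of 10 genes at 24, 30, 48 and 96 h, where it was called for 0%, 0.0355%, 0% and 2.91% of all genes.

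**Figure D3:**
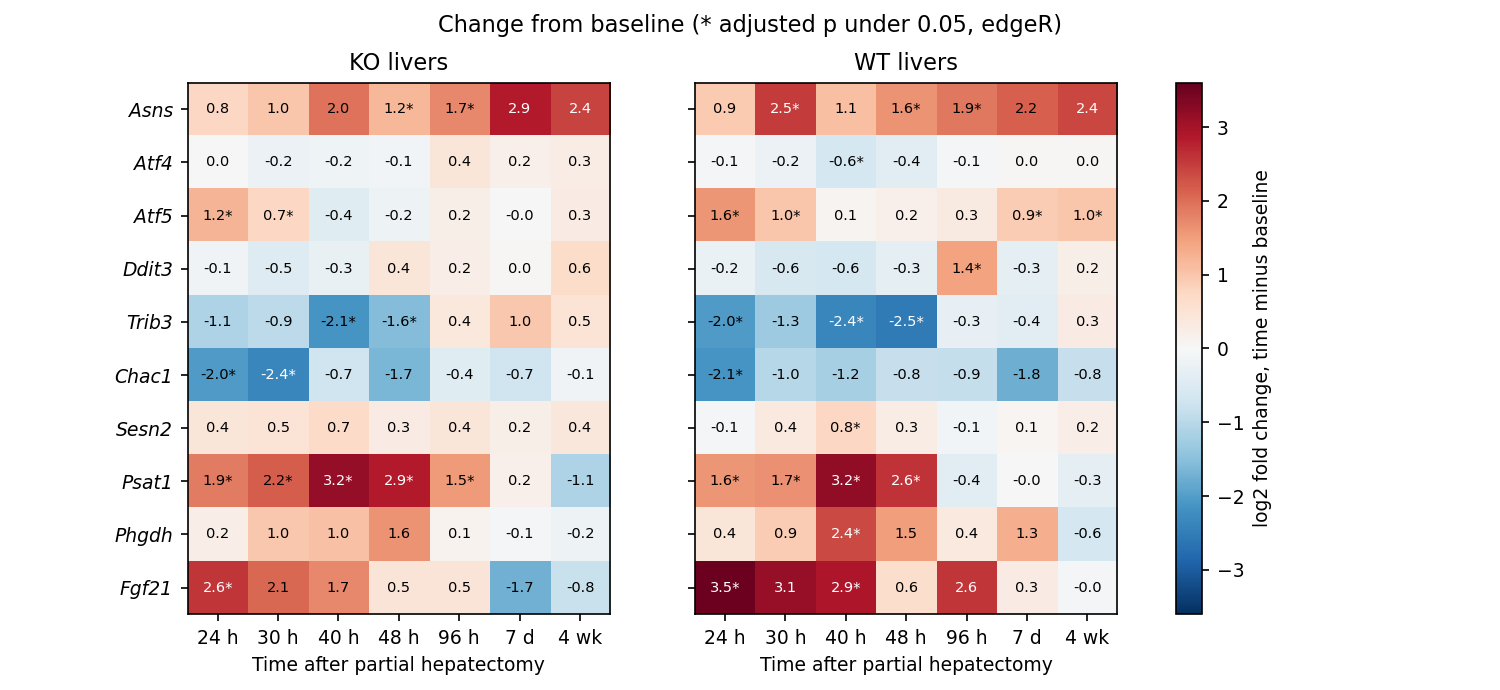
Log2 fold change of each gene at each time against baseline in KO livers (left) and WT livers (right), on 1 colour scale, with 96 h as labelled; a star marks an edgeR adjusted p under 0.05 over all 14090 genes, and Asns at 40 h, 7 days and 4 weeks is shown without stars. Asns is above 0 in every cell, Psat1 is starred from 24 to 48 h in both genotypes, and Trib3 and Chac1 are below 0 from 24 to 48 h.

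Asns had a positive log2 change from baseline at each of the 7 times in both genotypes. In KO livers the change was 0.75 ± 0.42 at 24 h (edgeR adjusted p = 0.21), 0.99 ± 0.42 at 30 h (0.0714), 1.19 ± 0.42 at 48 h (0.0253) and 1.74 ± 0.42 at 96 h (0.00118). In WT livers it was 0.93 ± 0.53 at 24 h (edgeR adjusted p = 0.222), 2.53 ± 0.54 at 30 h (0.000918), 1.62 ± 0.55 at 48 h (0.0243) and 1.90 ± 0.51 at 96 h as labelled (0.00631). At the times that entered the choice of genes the change was 1.96 ± 0.42 at 40 h, 2.85 ± 0.45 at 7 days and 2.43 ± 0.42 at 4 weeks in KO livers. In WT livers it was 1.07 ± 0.53, 2.16 ± 0.51 and 2.39 ± 0.50 at these times, and no p-value is given there for either genotype. The change at 30 h was thus larger in WT livers by estimate, and the difference of the changes, KO minus WT, was -1.54 ± 0.69 with an edgeR adjusted p of 0.536 (unadjusted p = 0.0322).

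The order of the KO means was baseline (5.72 CPM), 24 h (9.57), 30 h (11.3), 48 h (12.9), 96 h (19.0), 40 h (22.1), 4 weeks (30.6) and 7 days (41.1), and each neighbouring pair of groups overlapped. In WT livers the order of mean CPM was baseline (1.61), 24 h (3.08), 40 h (3.39), 48 h (4.95), 96 h (6.04), 7 days (7.28), 4 weeks (8.45) and 30 h (9.31), where only 40 h and 48 h did not overlap. The KO call at 48 h was lost without KO baseline replicate 2 or 3 or KO 48 h replicate 1 (adjusted p 0.0856 to 0.125). The WT call at 48 h was lost without WT baseline replicate 1 or 3 or WT 48 h replicate 2 (0.0701 to 0.157).

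Psat1 and Phgdh encode enzymes of serine synthesis from a glycolytic intermediate, phosphoserine aminotransferase and phosphoglycerate dehydrogenase. Psat1 (ENSMUSG00000024640; chromosome 19, 15904678 to 15947337, minus strand) was low at baseline and peaked at 40 h in both genotypes. It stood at 3.38, 3.63 and 5.25 CPM in KO livers at 40 h, against 0.281, 0.927 and 0.154 CPM in KO livers at baseline. WT livers held 7.6, 4.39 and 7.01 CPM at 40 h, against 0.876, 0.429 and 0.764 CPM at baseline. All libraries of 40 h were above all libraries of baseline.

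The log2 change of Psat1 at 40 h was 3.17 ± 0.45 in KO livers (edgeR adjusted p = 7.36e-07) and 3.19 ± 0.43 in WT livers (2.68e-07), that is 9.02-fold and 9.11-fold. Psat1 was also higher at 24 h, by 1.87 ± 0.48 in KO livers (edgeR adjusted p = 0.00356) and 1.58 ± 0.45 in WT livers (0.00961), and at 30 h and 48 h in both genotypes. By 7 days it was back at 0.786 and 0.216 CPM in KO livers and 0.388, 0.668 and 0.958 CPM in WT livers, near its baseline levels, and neither was called. KO baseline replicate 2 set part of the KO values: without it the change at 40 h was 4.24 and that at 24 h was 2.94. The WT calls at 24 h (without WT 24 h replicate 3 or WT baseline replicate 2, adjusted p 0.0863 and 0.062) and at 30 h (without WT 30 h replicate 2 or WT baseline replicate 2, 0.143 and 0.0796) were lost. The WT call at 30 h was also lost with limma on the FPKM scale with either pseudocount (adjusted p up to 0.144). In libraries labelled KO at 96 h Psat1 was higher by 1.52 ± 0.50 (edgeR adjusted p = 0.0124), a call lost without KO 96 h replicate 2 (log2 change 0.78, adjusted p = 0.272) or KO baseline replicate 1 or 3 (0.0555 and 0.103). It was also lost with limma on log2(FPKM + 1) and in a fit of only the groups compared.

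Phgdh (ENSMUSG00000053398; chromosome 3, 98313170 to 98339990, minus strand) had only 0 to 21 counts per library. The single 0, in WT 7 day replicate 1, allows a level of up to 0.232 CPM (3 counts, counting error only). Its highest WT mean was at 40 h, with 0.942, 0.274 and 0.787 CPM, against 0.146, 0.143 and 0.0764 CPM at baseline. This was a log2 change of 2.36 ± 0.75 (edgeR adjusted p = 0.0123), lost without WT 40 h replicate 1 (adjusted p = 0.0671) and on the FPKM scale (0.147 and 0.0851 with a pseudocount of 0.1 and 1). Other Phgdh contrasts were not called, and KO livers at 40 h held 0.218, 0.293 and 0.624 CPM.

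Atf4 itself (ENSMUSG00000042406; chromosome 15, 80255184 to 80257541, plus strand) was among the steadiest of the 10 genes, at 49.6 to 121 CPM over all 45 libraries. It was called once, lower in WT livers at 40 h, with 63.7, 69.5 and 49.6 CPM at 40 h against 92.4, 75.6 and 115 CPM at baseline. The log2 change was -0.63 ± 0.18 (edgeR adjusted p = 0.00583). It was not past the threshold without WT baseline replicate 3 (0.0639) or WT 40 h replicate 3 (0.0529), nor on the FPKM scale, and the highest adjusted p over its other settings was 0.0903. In KO livers no time was called, with log2 changes from -0.21 to 0.43.

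Atf5 (ENSMUSG00000038539; chromosome 7, 44812256 to 44816658, minus strand), a related factor whose translation also rises under eIF2 phosphorylation, had an early peak. At 24 h it stood at 562, 579 and 506 CPM in KO livers, against 173, 301 and 227 CPM at baseline. WT livers held 443, 484 and 532 CPM at 24 h, against 183, 160 and 146 CPM at baseline. The log2 change was 1.23 ± 0.18 in KO livers (edgeR adjusted p = 5.41e-06) and 1.58 ± 0.19 in WT livers (1.18e-07), with no overlap in either.

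The Atf5 rise was smaller at 30 h, with log2 changes of 0.74 ± 0.18 in KO livers (edgeR adjusted p = 0.00213) and 0.99 ± 0.20 in WT livers (0.000485), and it was not called at 40, 48 or 96 h. In WT livers Atf5 was again higher at 7 days (0.91 ± 0.18, edgeR adjusted p = 0.00371) and at 4 weeks (0.99 ± 0.18, 0.00374). KO livers were not called at either time, with a log2 change of 0.29 ± 0.18 at 4 weeks, and their baseline mean was 234 CPM against 163 CPM in WT livers. The difference between genotypes in these late changes was not tested, as 7 days and 4 weeks entered the choice of genes. All 6 Atf5 calls held with each library left out. Atf5 overlaps exons of Il4i1 and Nup62 on the opposite strand, and the labels read here do not state the strand setting of the counting, so a part of its counts may belong to them.

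**Figure D4:**
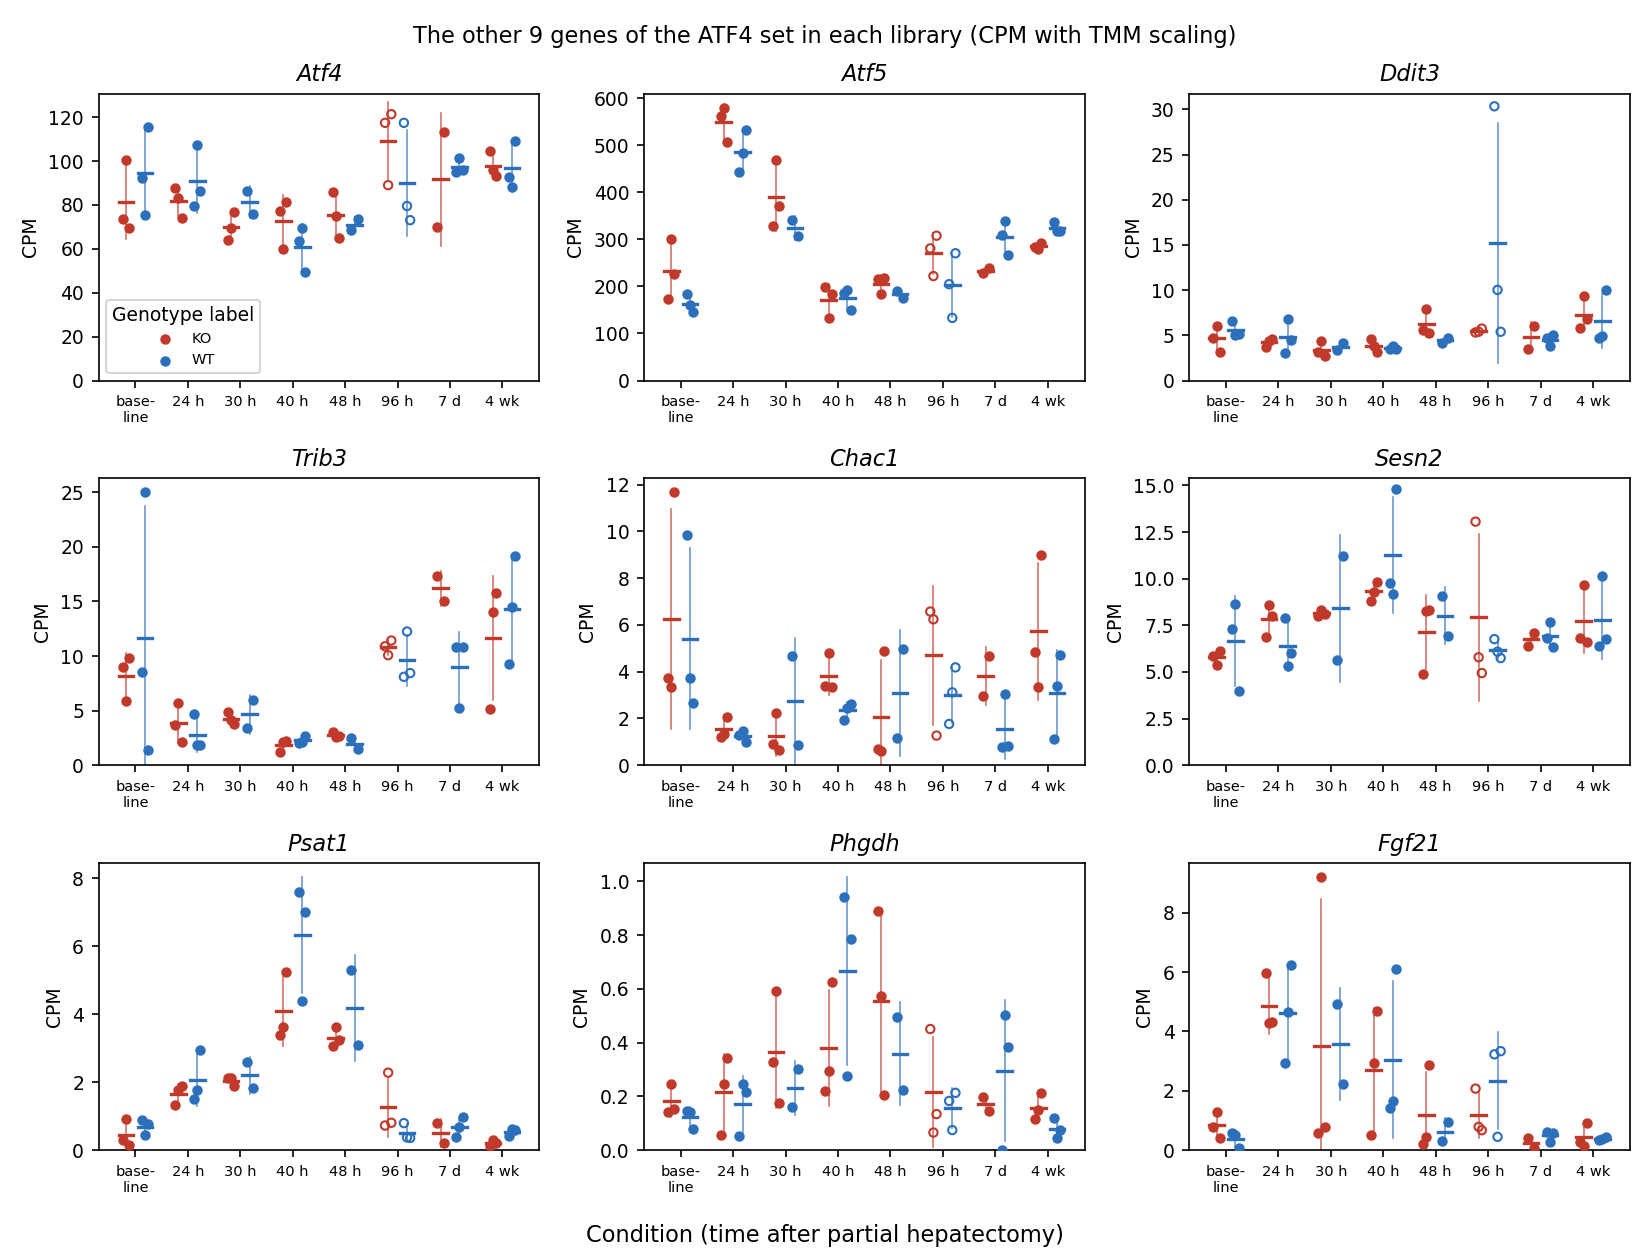
The 9 genes other than Asns in each library (CPM with TMM scaling, linear axes that differ between panels), KO in red left of WT in blue; bars are group means, lines are 1 SD, and open circles are libraries of 96 h as labelled. Atf5 peaks at 24 h and Psat1 at 40 h in both genotypes, and Trib3 stays at or below 5.94 CPM in all libraries from 24 to 48 h.

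Ddit3, Trib3, Chac1 and Sesn2 are regulators downstream of ATF4. Trib3 (ENSMUSG00000032715; chromosome 2, 152337422 to 152344032, minus strand), a pseudokinase that restrains ATF4 and insulin signalling, ran against Psat1 over time. Its lowest levels were at 40 h and 48 h. At 40 h Trib3 stood at 1.25, 2.17 and 2.24 CPM in KO livers, against 9, 5.87 and 9.78 CPM at baseline. WT livers held 2, 2.14 and 2.69 CPM at 40 h, against 8.54, 25 and 1.38 CPM at baseline, and these overlapped.

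The log2 change of Trib3 at 40 h was -2.12 ± 0.57 in KO livers (edgeR adjusted p = 0.00377), a call that held with each library left out. In WT livers it was -2.36 ± 0.56 (edgeR adjusted p = 0.00125), with further calls at 24 h (-2.04 ± 0.55) and 48 h (-2.54 ± 0.66). Those 3 WT calls rested on WT baseline replicate 2 at 25 CPM: without it they were -1.13, -0.81 and -1.31, with an adjusted p of 0.0985, 0.295 and 0.0954. The WT call at 48 h was also lost without WT 48 h replicate 3 (0.0568), and fits of only the groups compared gave 0.138 to 0.28. With limma on log2(FPKM + 0.1) all 3 WT calls were lost. In KO livers the change at 48 h was -1.56 ± 0.54 (edgeR adjusted p = 0.0233), lost without KO baseline replicate 1 or 3 or KO 48 h replicate 2 or 3 (0.0563 to 0.0766). That KO call was also lost with limma on the FPKM scale with either pseudocount (adjusted p up to 0.0815). At 7 days Trib3 was at 17.3 and 15.1 CPM in KO livers and 10.9, 5.23 and 10.8 CPM in WT livers, and neither was called against baseline.

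Chac1 (ENSMUSG00000027313; chromosome 2, 119351229 to 119354381, plus strand), which breaks down glutathione, was low at 24 h. It had 1.2, 1.35 and 2.05 CPM in KO livers, against 3.73, 3.34 and 11.7 CPM at baseline, and 1.29, 1.47 and 0.976 CPM in WT livers, against 9.86, 3.72 and 2.67 CPM at baseline. The log2 changes of -2.04 ± 0.76 in KO livers (edgeR adjusted p = 0.0495) and -2.12 ± 0.78 in WT livers (0.0491) lay just inside the threshold. In KO livers the call was lost without KO 24 h replicate 1, 2 or 3 or KO baseline replicate 3 (adjusted p 0.0829 to 0.347). In WT livers it was lost without WT 24 h replicate 1, 2 or 3 or WT baseline replicate 1 or 2 (0.0519 to 0.311), and 5 of 8 other settings lost it in either genotype. Chac1 was also lower in KO livers at 30 h (-2.35 ± 0.78, edgeR adjusted p = 0.0198), which was lost without KO 30 h replicate 1 or 3 or KO baseline replicate 3 (0.0734 to 0.19).

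Ddit3 (ENSMUSG00000025408; chromosome 10, 127290774 to 127296288, plus strand), the pro-apoptotic factor CHOP, was not called outside 96 h, at 2.7 to 9.98 CPM in those 39 libraries. WT libraries lay below baseline without overlap at 30 h, 40 h, 48 h and 7 days, with log2 changes from -0.64 to -0.32. At those times 20.8%, 22.5%, 25.3% and 8.53% of all genes did so in WT livers. KO libraries overlapped with baseline at every time. At 96 h the libraries labelled KO held 5.31, 5.4 and 5.74 CPM, and those labelled WT held 30.3, 10.02 and 5.39 CPM. One library, replicate 1 labelled WT, stood far above all others. The log2 difference, KO minus WT as labelled, was -1.48 ± 0.37 (edgeR adjusted p = 0.00738), and the change from baseline in libraries labelled WT was 1.45 ± 0.37 (0.00409). Without that library the values were -0.49 (adjusted p = 0.352) and 0.48 (0.321), and a fit of only the groups compared gave 0.223 and 0.192. The call between the labelled genotypes was also lost with the replicate number as a block. Ddit3 overlaps exons of Mars and Gm4189 on the opposite strand. A further annotated entry named Ddit3 shares exon positions with it on the same strand and is not among the counted genes. The part of these overlaps in its counts was not tested.

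Sesn2 (ENSMUSG00000028893; chromosome 4, 132492032 to 132510501, minus strand), a leucine sensor that restrains mTORC1, was called once. In WT livers at 40 h it stood at 9.78, 9.16 and 14.8 CPM, against 7.3, 8.65 and 3.97 CPM at baseline, a log2 change of 0.75 ± 0.28 (edgeR adjusted p = 0.0336). The call was lost without WT baseline replicate 1 or 3 or WT 40 h replicate 3 (adjusted p 0.0517 to 0.215) and in a fit of the groups compared alone (0.0885). It was also lost with the replicate number as a block in a fit of 40 h and baseline alone. KO livers at 40 h held 8.82, 9.3 and 9.82 CPM, against 5.84, 5.38 and 6.13 CPM at baseline. Those libraries did not overlap either, with a log2 change of 0.69 that was not called.

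Fgf21 (ENSMUSG00000030827; chromosome 7, 45613886 to 45615490, minus strand) encodes a liver hormone that is a target of both ATF4 and the fatty acid receptor PPARA. Its mean was highest at 24 h, with 5.96, 4.29 and 4.32 CPM in KO livers, against 0.774, 1.3 and 0.412 CPM at baseline. WT livers held 2.94, 4.64 and 6.24 CPM at 24 h, against 0.584, 0.501 and 0.0764 CPM at baseline. The libraries did not overlap in either genotype.

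The log2 change of Fgf21 at 24 h was 2.56 ± 0.92 in KO livers (edgeR adjusted p = 0.0415) and 3.53 ± 1.05 in WT livers (0.0143). The KO call was lost without any 1 of the 6 libraries compared (adjusted p 0.0541 to 0.153) and with no filter on low counts (0.063). The WT call was lost without WT 24 h replicate 3 or WT baseline replicate 3 (0.0501 and 0.0642). Levels were uneven at 30 h and 40 h: KO livers at 30 h held 0.563, 9.22 and 0.764 CPM, and WT livers at 40 h held 1.41, 1.65 and 6.1 CPM. The WT change at 40 h was 2.92 ± 1.08 (edgeR adjusted p = 0.0327), lost without WT 40 h replicate 3 or any of the WT baseline replicates (0.0593 to 0.221) and with no filter on low counts. It was also lost with the replicate number as a block, both over all libraries and in a fit of 40 h and baseline alone. From 48 h on, no Fgf21 change was called.

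Other genes of the pathway were counted in 9 lists with 126 tested genes: further ATF4 targets, amino acid transporters, tRNA synthetases, serine and one-carbon genes, the eIF2 arm, ER and mitochondrial chaperones, PPARA targets and asparagine and glutamine genes. Between the genotypes, 0 of 126 were called at baseline, 24, 40 and 48 h, 7 days and 4 weeks. At 30 h, where 0.937% of all genes were called, 1 of the 126 was called. It was Mthfd2, a mitochondrial folate enzyme, with a mean of 8.68 CPM in KO livers and 3.76 CPM in WT livers (log2 difference 1.21 ± 0.26, edgeR adjusted p = 0.0162). The WT group at 30 h had 2 libraries, and the call was lost without WT 30 h replicate 3. At 96 h as labelled, where 14.3% of all genes were called, 9 were higher and 25 lower in libraries labelled KO, among them 15 of 18 ER chaperone and folding genes, all lower and led by Derl3, Creld2 and Syvn1. Without replicate 1 labelled WT, which carried the Ddit3 difference, 10 of those 18 were lower, and no genotype effect is read from this contrast.

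Against baseline, the lists are read beside the share of all genes called, 23.7% in KO livers and 22.4% in WT livers at 24 h and 35.6% and 36.5% at 40 h. The clock gene Dbp fell at 24 h, at 1.51 CPM in KO livers at 24 h against 38.4 CPM at baseline and at 0.96 CPM in WT livers against 42.6 CPM. The part of the hour of collection in the 24 h changes was not tested. Among amino acid transporters, 2 of 10 tested genes rose and 1 fell at 24 h in each genotype. The neutral amino acid carrier Slc1a4 led, at 26.3 CPM in KO livers at 24 h against 4.87 CPM at baseline, and at 31.2 CPM in WT livers at 24 h against 3.54 CPM. Of 21 tRNA synthetases, 5 rose and 0 fell in KO livers at 24 h, and 3 rose and 1 fell in WT livers, with Aars, for alanine, higher by 0.75 and 0.64 on the log2 scale.

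Of 13 tested serine and one-carbon genes, 3 rose and 4 fell in KO livers at 40 h, and 3 rose and 3 fell in WT livers. Those that rose beside Psat1 were Mthfd2, Mthfd1l and Psph in both genotypes, with log2 changes of Mthfd2 of 3.09 ± 0.25 in KO livers and 3.56 ± 0.25 in WT livers. Psph, the last enzyme of serine synthesis, rose by 1.40 ± 0.27 in KO livers and 1.56 ± 0.27 in WT livers. Of 7 genes that use asparagine or glutamine, 3 were lower and 0 higher at 24 h and at 40 h in both genotypes, the other 4 not being called. The 3 were the asparaginases Aspg and Asrgl1 and the glutaminase Gls2, the last at 90.7 CPM in KO livers at 24 h against 528 CPM at baseline, and at 108 CPM in WT livers at 24 h against 487 CPM.

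PPARA targets rose with Fgf21 at 24 h: 8 of 12 were higher and 0 lower in each genotype. Their median log2 change was 1.53 in KO livers and 2.02 in WT livers, against -0.01 and -0.00 over all genes, and the 10 members had a median of 0.34 and 0.19. The fatty acid hydroxylase Cyp4a14 reached a mean of 3616 CPM in KO livers at 24 h against 57.4 CPM at baseline, and 2802 CPM in WT livers against 27.0 CPM. Of 23 further ATF4 targets tested, 1 rose and 2 fell in KO livers at 24 h, and 3 rose and 5 fell in WT livers. In KO livers those that fell were Gdf15, a stress hormone, at 5.03 CPM against 63.4 CPM at baseline, and Herpud1. Atf3 and Pck2 rose at 40 h in both genotypes, Pck2 by 1.28 ± 0.37 in KO livers and 1.39 ± 0.37 in WT livers. At that time 35.6% of all genes were called in KO livers and 36.5% in WT livers. Numbers of the 23 targets that rose or fell at 40 h are not given here, so these genes do not stand for the list.

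The proliferation list, 12 genes such as Mki67, was higher in full at 40 and 48 h in both genotypes, at the times when Psat1 was high and Trib3 low. Its summed level at 40 h was 1026 to 1356 CPM in KO livers and 1076 to 1689 CPM in WT livers, so the genotypes overlapped where Asns did not. At 30 h the sum was 672 to 822 CPM in KO livers and 257 to 349 CPM in WT livers, and there Asns overlapped. Their part in the changes of the members was not tested.

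Across the 45 libraries the 10 genes did not vary as 1 unit. These correlations of log2 CPM are descriptions, since the libraries share times and genotypes. Of 45 pairs of members, 2 had a Pearson correlation over 0.5, namely Psat1 with Phgdh at 0.61 and Atf4 with Ddit3 at 0.52. The lowest was Trib3 with Psat1 at -0.76, the median was -0.02, and Asns had 0.11 with Atf4 and 0.08 with Atf5.

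By the same measure, the 5 genes most like Asns among 10263 genes were Gstp2 (0.71), Twf2 (0.68), Uap1l1 (0.66), Ugdh (0.65) and Bglap3 (0.64), and in the 39 libraries outside 96 h all 5 ranked 7th or higher. Outside 96 h, Gstp2 and Bglap3 were also higher in KO libraries. As Asns was chosen for its higher level in KO livers, genes higher in KO livers rank high in part through that choice. Gstp2 ran from 4.96 to 41.2 CPM in the 20 KO libraries outside 96 h and from 0.779 to 3.2 CPM in the 19 WT libraries. Most like Trib3 were Slc35e2 (0.89), Mettl27 (0.88), Ypel3 (0.86), Agxt (0.86) and Dedd2 (0.85). Most like Fgf21 were Gk (0.79), Cidec (0.76), Eci2 (0.75), Rab30 (0.74) and Chrna2 (0.74).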

How the data were processed

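RNA from 45 mouse liver libraries was extracted with a column kit and sequenced as 100 bp paired-end reads after poly(A) selection, per the labels' protocols. The authors deposited whole read counts per gene and FPKM values. The submitters' processing notes name FastQC 0.11.5, Trimmomatic, TopHat2 2.1.0, HTSeq, Cufflinks 2.2.1, DESeq2 and the build mm10. The strand setting of the counting is not given in the sources used here.

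The deposited counts of 19966 genes were filtered with filterByExpr over the 16 groups, scaled with TMM and fitted in one model with edgeR 4.0.16 (glmQLFit, robust; R 4.3.3), with Benjamini-Hochberg adjustment over 14090 genes and a threshold of 0.05. SE was derived from the log2 fold change and the F statistic. Library totals of 12851359 to 23133501 counts set the counting precision of low genes. The deposited FPKM values were used for levels compared between genes and, as log2(FPKM + 0.1) or log2(FPKM + 1), with limma 3.58.1. Other alternatives were DESeq2 1.42.0, its size factors in edgeR, no filter, no 96 h libraries, only the groups compared, the replicate number as a block, and each library left out. On data simulated for KO at 24 h against baseline (13592 genes), edgeR recovered 84 of 100 genes changed 2-fold and 100 of 100 changed 4-fold, with 8 false calls. The changed genes were drawn only from those above a set mean level, and all genes were given the same variability. Recovery of low or more variable genes, such as several members, was therefore not measured.

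All 10 members are named in every comparison. Of other lists, up to 3 called genes with the largest absolute log2 change are named, and likeness is given for the 5 highest correlations among non-member genes with a symbol and a mean log2 CPM of at least 1. Asns at 40 h, 7 days and 4 weeks is given without p-values, in both genotype and time contrasts. Its calls there enter only counts from which nothing is read for Asns. The fit of 40 h and baseline with a block, and the ER chaperone counts with libraries left out, were added after seeing the data. Members and lists were chosen with earlier results of these data known. Library pairs of the same group all differed by more than counting noise.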

Additional observations from a re-analysis of the deposited data

How the results depend on the processing

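Of 37 called contrasts outside those that chose the genes, 16 held with each library left out and 21 were lost without at least 1. Low counts limit Phgdh, Psat1, Fgf21 and Chac1. Asns between genotypes at 30 h reversed without KO 30 h replicate 3, at a log2 difference of -0.062 in a range of -0.062 to 0.52 over libraries left out (adjusted p = 0.988, in a range of 0.797 to 0.988 over all alternatives), and was 2.06 at 40 h with limma on log2(FPKM + 1). Counts of members called in this section include Asns at 40 h, 7 days and 4 weeks, unlike the counts out of 9 genes above. In KO livers against baseline, the 1 call at 7 days and at 4 weeks was Asns, and Asns was among the 3 at 40 h. Nothing is read from Asns at those times. Without the 96 h libraries, 1 count moved: 5 members were called in KO livers at 40 h, against 3 with them.

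Between genotypes, DESeq2 called 1 member at baseline, against 0. At 4 weeks 0 were called, against 1, with no filter or with only the groups compared, which also gave 0 at 7 days, against 1, and 1 at 96 h as labelled, against 2. Against baseline, fits of only the groups compared called 5 members in KO livers at 30 h, against 3, 1 at 96 h, against 2, and 0 at 7 days, against 1, and in WT livers 1 at 96 h as labelled and 1 at 4 weeks, against 2 at each. No filter gave 2 in KO livers at 24 h, against 4. On the FPKM scale, 3 were called in WT livers at 24 h with either pseudocount, against 5, and 1 in KO livers at 96 h with a pseudocount of 1, against 2. The causes were not tested.

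Most same-numbered libraries did not deviate together: 8 of 21 pairs between genotypes had a correlation over 0.1 (range -0.31 to 0.31), and 4 of 39 pairs of a time with baseline (-0.16 to 0.16). The numbers are not taken to pair libraries in the fit reported. For 40 h with baseline the correlations were 0.157, 0.0898 and 0.102 in WT livers and -0.0098, -0.0637 and 0.159 in KO livers. Whether those libraries are paired cannot be told from these values. The names of the baseline columns carry 40 h, which may tie them to the 40 h libraries, and the labels do not say whether they share animals. A replicate block in a fit of 40 h and baseline alone, chosen after seeing the data, called 2 members in KO livers, against 3, and 4 in WT livers, against 6, with Trib3 lost in both (adjusted p 0.0904 in KO and 0.147 in WT livers). With the replicate block, 0 members were called between genotypes at 40 h, 7 days and 4 weeks, against 1 at each, and 1 at 96 h as labelled, against 2.

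With each library left out, the members called between genotypes numbered 0 to 3 at 96 h, 0 to 1 at 7 days and at 4 weeks, and 1 at 40 h. In KO livers against baseline they numbered 2 to 3 at 24 h, 2 to 4 at 30 h, 3 to 4 at 40 h, 1 to 4 at 48 h, 1 to 3 at 96 h and 1 later. In WT livers they numbered 2 to 4 at 24 h and 30 h, 3 to 6 at 40 h, 2 at 48 h, 1 to 3 at 96 h and 1 to 2 later.

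Counts over all genes also moved. Between genotypes they ran over settings from 6 to 41 at baseline (12 in the fit reported), 2 to 18 at 24 h (6), 50 to 296 at 30 h (132), 0 to 33 at 48 h (19), 206 to 2168 at 96 h (2014), 7 to 25 at 7 days (19) and 13 to 41 at 4 weeks (31). Against baseline, KO counts ran from 4122 to 6320 at 96 h (6200), 397 to 1069 at 7 days (783) and 907 to 2167 at 4 weeks (1208). WT counts ran from 1537 to 2799 at 30 h (2490), 2829 to 4740 at 48 h (4373), 1995 to 4015 at 96 h (3858), 71 to 725 at 7 days (501) and 69 to 310 at 4 weeks (165). Differences of the change ran from 0 to 1 at 24 h (0), 0 to 18 at 30 h (5), 0 to 5 at 48 h (0) and 24 to 733 at 96 h (410). With each library left out, the genotype counts ran from 1 to 18 at baseline, 1 to 5 at 24 h, 0 to 122 at 30 h (0 without WT 30 h replicate 3), 8 to 19 at 40 h (20 in the fit reported), 4 to 21 at 48 h, 1230 to 2444 at 96 h, 8 to 17 at 7 days and 7 to 39 at 4 weeks. Against baseline the largest loss was in KO livers at 7 days, to 66 genes without KO 7 day replicate 3.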
